A study of Oryza sativa with 10 samples.

Results

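Of 41635 annotated rice transcripts measured by RNA-Seq in roots, 51 (0.122%) had at least double the NT level in every line library. They were chosen from the deposited FPKM values (fragments scaled to transcript length and to the mapped reads of the library). The lowest of the 8 line libraries had to reach 2 FPKM and at least 2 times the higher of the 2 NT libraries. The 51 transcripts belonged to 50 of the 37869 Gene_IDs. The study compared non-transgenic (NT) rice with 4 kinds of transgenic rice, each overexpressing 1 myc-tagged transcription factor of the NAC family, OsNAC5, OsNAC6, OsNAC9 or OsNAC10, from the root promoter RCc3. The labels give the constructs as RCc3:myc-OsNAC5, RCc3:OsNAC6-myc, RCc3:myc-OsNAC9 and RCc3:OsNAC10-myc. All 5 groups were roots of cultivar Illmi at 20 days of age, with 2 libraries each, and NT and transgenic seedlings alike were submerged in water for some days before the harvest. Lines were picked by their amount of tagged protein, and the number of lines sampled per construct was not stated. A comparison with NT is therefore one of plant lines, and in roots taken whole, more cells of a type and more RNA per cell cannot be told apart.

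NAC proteins are plant-specific transcription factors that bind DNA through a conserved N-terminal domain and often activate genes of the response to drought, salt and low oxygen. Rice has a large family of them, and the 4 factors here are relatives that have been studied for root growth and drought tolerance.

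Total FPKM per library lay between 730218 and 789304. The FPKM tables carry no read numbers. From the steps of the lowest values, depth relative to NT replicate 1 ranged from 0.920 in OsNAC6 replicate 1 to 1.56 in NT replicate 2. Each OsNAC gene was highest in both libraries of its own line, with a lower replicate of 146, 123, 413 and 34.7 FPKM for OsNAC5, OsNAC6, OsNAC9 and OsNAC10 and at most 46.6, 96.5, 50.1 and 27.4 FPKM in any other library. The summed level of 3 root genes (Lsi1, Lsi2 and RCc3) was 3236 and 3243 FPKM in NT and 2733 to 3963 in the lines, and that of 3 photosynthesis genes of the leaf was 8.12 and 9.77 FPKM in NT and 6.72 to 9.62 in the lines, so both sums overlapped between NT and the lines. The part of depth in the results was not tested.

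To see how demanding the rule was, it was applied to each line alone. OsNAC5 alone had 243 such transcripts (0.584%), OsNAC6 had 409 (0.982%), OsNAC9 had 493 (1.18%) and OsNAC10 had 394 (0.946%). OsNAC5 thus had the fewest. With only 1 library of the line to pass, the counts that moved most were 440 in OsNAC5 (without replicate 1), 615 and 1094 in OsNAC6 (without replicates 1 and 2), 865 in OsNAC9 (without replicate 1) and 685 in OsNAC10 (without replicate 1). A total of 20442 transcripts reached 2 FPKM in every line library, and these serve as the comparison set, of which the 51 were 0.249%. All comparisons with NT used the same 2 NT libraries and had been used by the rule, so they are given as levels without a test.

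The most frequent description among the 51 was that of a protein with no known role. No function was assigned to 38 (74.5%), against 36.8% of the comparison set and 45.1% of all transcripts. The comparison set was not matched for the NT level. Its only 17 transcripts with both NT libraries under 0.5 FPKM are all members. Conserved hypothetical proteins were 19 of them (37.3%, against 10.6% of the comparison set). A further 9 were other hypothetical genes (17.6% against 13.3%), 6 were non-protein-coding transcripts (11.8% against 3.76%), 2 had only a domain of unknown function, and 2 were named after a full-length cDNA clone. By the words of their descriptions, transcription factors and chromatin proteins, kinases and phosphatases, membrane transporters, and proteins of organelle energy metabolism held none of the 51, while the comparison set held 1149, 1004, 467 and 97 of them. These words did not catch the MRG family protein Os11t0545600-03, nor Os03t0146100-05, which lies at the Gene_ID of an aquaporin. Descriptions were read per transcript. Most of the non-coding transcripts lie at Gene_IDs with another transcript described as a protein, as given below.

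Most of the 51 were low in NT. On the log2(FPKM + 1) scale, which understates the difference of low transcripts, the mean of the 8 line libraries minus the mean of NT ranged from 0.89 to 8.89, with a median of 2.43, beside a median of 0.00 over all transcripts and 0.04 over the comparison set. The higher NT library was under 0.5 FPKM for 17, and any transcript of the comparison set with so low an NT level meets the rule by construction. It was between 0.5 and 5 FPKM for 23 and at least 5 FPKM for 11. Both NT libraries were listed at 0 for 3 transcripts and one of them for 4. The lowest line library was between 2 and 5 FPKM for 23, between 5 and 10 for 9, between 10 and 100 for 16 and at least 100 for 3. Among the 34 transcripts with at least 0.5 FPKM in NT, the lowest line library was 2 to 3 times the higher NT library for 21, 3 to 10 times for 8 and 10 times or more for 5, with a median of 2.82. Summed over the 51, the share of all FPKM was 0.0313% and 0.0294% in NT and 0.279% to 0.437% in the line libraries.

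**Figure D1:**
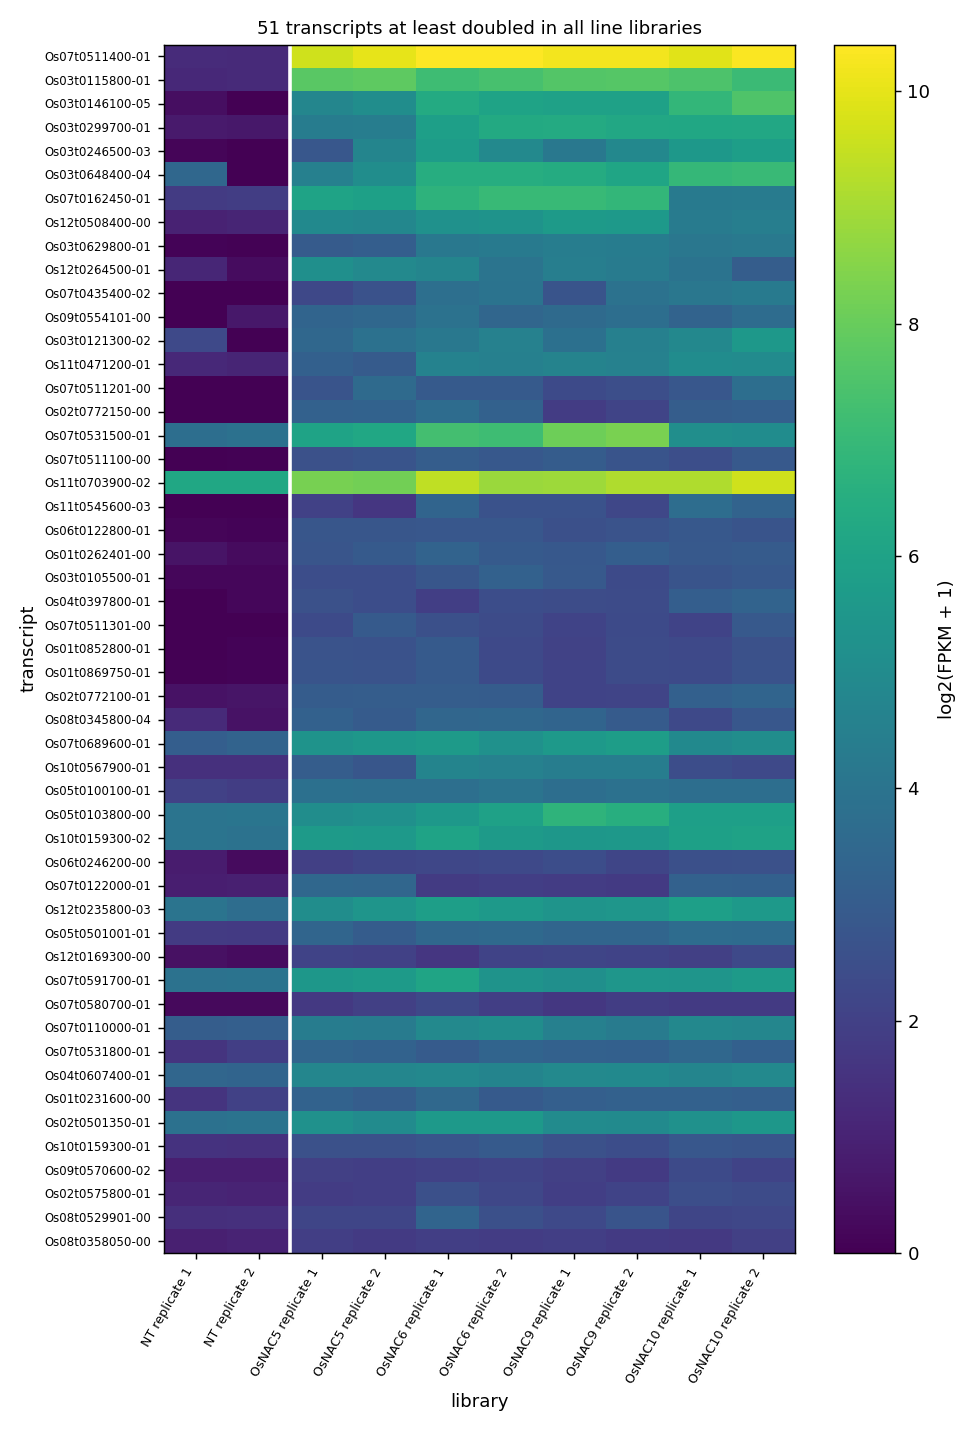
Level of the 51 transcripts (rows, ordered by the mean of the lines minus NT) in the 10 libraries (columns), as log2(FPKM + 1) by colour, with a white line between NT and the lines. The first row, Os07t0511400-01, is near the bottom of the scale in NT and at its top in all 8 line libraries, and all rows are darker in NT, as the rule requires.

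On log2(FPKM + 1), the transcript furthest from NT was Os07t0511400-01, a hypothetical protein. Os07t0511400-01 was at 1.45 and 1.33 FPKM in the NT libraries, and at 807 and 1030 (OsNAC5), 1336 and 1351 (OsNAC6), 1192 and 1190 (OsNAC9) and 989 and 1306 (OsNAC10) in the lines. The level was thus close to 1 FPKM in both NT libraries and the highest of the 51 in all 8 line libraries. Next came Os03t0115800-01, a conserved hypothetical protein. FPKM values of Os03t0115800-01, replicates 1 and 2, were 1.29 and 1.35 for NT, 210.1 and 225 for OsNAC5, 144 and 163 for OsNAC6, 194 and 203 for OsNAC9 and 178 and 133 for OsNAC10. Here OsNAC5 had the highest libraries and the 4 lines stayed close to each other. Os03t0299700-01, also a conserved hypothetical protein, was under 1 FPKM in NT. NT showed 0.706 and 0.571 FPKM of Os03t0299700-01, OsNAC5 19.4 and 20.4, OsNAC6 57.9 and 78.6, OsNAC9 81.1 and 73.6 and OsNAC10 73.3 and 75.3. Both OsNAC5 libraries were below the 6 others. Os03t0629800-01, a conserved hypothetical protein, likewise was lowest in OsNAC5. Os03t0629800-01 was at 0.0763 and 0.0490 FPKM in the NT libraries, and at 7.02 and 7.71 (OsNAC5), 17.2 and 18 (OsNAC6), 20.0 and 19.8 (OsNAC9) and 16.4 and 17.6 (OsNAC10) in the lines.

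Of the hypothetical genes with an appreciable NT level, Os10t0159300-02, Os07t0591700-01, Os05t0103800-00 and Os02t0501350-01 had the highest minimum over the line libraries. FPKM values of Os10t0159300-02, replicates 1 and 2, were 15.1 and 14.2 for NT, 50.5 and 46.5 for OsNAC5, 64.5 and 49.9 for OsNAC6, 44.6 and 46.4 for OsNAC9 and 58.7 and 63.3 for OsNAC10. NT showed 14.3 and 14.4 FPKM of Os07t0591700-01, OsNAC5 43.8 and 49.7, OsNAC6 67.2 and 39.9, OsNAC9 35.1 and 43.7 and OsNAC10 42.5 and 49.6. Os02t0501350-01 was at 13.9 and 14.4 FPKM in the NT libraries, and at 37.8 and 31.5 (OsNAC5), 48 and 49.1 (OsNAC6), 31.7 and 30.7 (OsNAC9) and 37.4 and 44.1 (OsNAC10) in the lines. The lowest line library was 2.96, 2.43 and 2.12 times the higher NT library in these 3, where the rule asks for at least 2 times. Os10t0159300-01, the other transcript of its Gene_ID, was also a member, at 1.91 and 1.77 FPKM in NT, while the lines spanned 4.42 to 6.70 FPKM.

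Some members were nearly level across the lines. Os04t0607400-01, Os05t0100100-01 and Os06t0122800-01 are a conserved hypothetical protein, a cDNA-clone gene and a hypothetical conserved gene. FPKM values of Os04t0607400-01, replicates 1 and 2, were 9.77 and 9.32 for NT, 26.4 and 26.7 for OsNAC5, 28.1 and 25.1 for OsNAC6, 28.5 and 29.9 for OsNAC9 and 25.3 and 28.6 for OsNAC10. NT showed 3.06 and 2.73 FPKM of Os05t0100100-01, OsNAC5 13.2 and 12.8, OsNAC6 13.1 and 15, OsNAC9 12.7 and 13.7 and OsNAC10 12.4 and 12.4. Os06t0122800-01 was at 0.115 and 0.0590 FPKM in the NT libraries, and at 5.94 and 5.81 (OsNAC5), 6.08 and 6.03 (OsNAC6), 4.75 and 5.33 (OsNAC9) and 6.29 and 5.42 (OsNAC10) in the lines. In each the line values lay close together and apart from NT. Others were graded, as in the conserved hypothetical proteins Os11t0471200-01 and Os12t0508400-00. FPKM values of Os11t0471200-01, replicates 1 and 2, were 1.29 and 1.12 for NT, 8.06 and 6.88 for OsNAC5, 23.8 and 22 for OsNAC6, 23.9 and 22.6 for OsNAC9 and 31.9 and 31.4 for OsNAC10. NT showed 1.0 and 1.13 FPKM of Os12t0508400-00, OsNAC5 29.4 and 26.7, OsNAC6 37.7 and 39.7, OsNAC9 49.6 and 46.7 and OsNAC10 19.2 and 20.9. OsNAC5 was the lowest line in the former and OsNAC10 in the latter, without overlap with the next line. The remaining hypothetical members Os01t0262401-00, Os03t0105500-01, Os05t0501001-01, Os07t0110000-01, Os08t0529901-00, Os09t0554101-00 and Os12t0169300-00 lay between 0 and 7.76 FPKM in NT and between 2.16 and 32.8 FPKM in the lines.

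Of the 6 non-coding transcripts, 4 belonged to Gene_IDs with several transcripts, each with another transcript described as a protein. These were a DnaJ homolog at Os03g0648400, a WD40-like protein at Os07g0435400 and a PAP/25A core domain protein at Os09g0570600. At Os03g0246500 it was a protein of unknown function (DUF869). Os03t0246500-03 and Os07t0435400-02 were close to 0 in NT. Os03t0246500-03 was at 0.105 and 0.00012 FPKM in the NT libraries, and at 6.08 and 25.3 (OsNAC5), 53.5 and 28.8 (OsNAC6), 16.9 and 27.9 (OsNAC9) and 45.8 and 55.4 (OsNAC10) in the lines. FPKM values of Os07t0435400-02, replicates 1 and 2, were 0.000091 and 0.000016 for NT, 3.78 and 5.22 for OsNAC5, 13 and 14.8 for OsNAC6, 5.43 and 14.4 for OsNAC9 and 16.5 and 18.5 for OsNAC10. The replicates of OsNAC5 differed in the former and those of OsNAC9 in the latter by more than those of any other line. Os09t0570600-02 and Os08t0358050-00 were low throughout, at 0.811 and 0.817 FPKM and at 0.864 and 1.05 FPKM in NT and at 2.39 to 4.01 FPKM and 2.34 to 2.95 FPKM in the lines.

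The 13 transcripts with an assigned function came from unrelated families. Nicotianamine synthase 3 (Os07t0689600-01) makes nicotianamine, which chelates iron and other metals and from which grasses make their phytosiderophores. NT showed 7.56 and 8.97 FPKM of Os07t0689600-01, OsNAC5 39 and 44.2, OsNAC6 49.9 and 37.6, OsNAC9 47.5 and 54.5 and OsNAC10 29.7 and 33.1. The lines did not overlap NT, and the lowest line was OsNAC10. The other 2 nicotianamine synthase transcripts of the table were far more abundant and did not meet the rule. Nicotianamine synthase 1 (Os03t0307300-01) had 383 and 407 FPKM in NT, while the lines spanned 401 to 1378 FPKM, and nicotianamine synthase 2 (Os03t0307200-01) had 439 and 470 FPKM in NT, while the lines spanned 452 to 1495 FPKM.

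Os07t0531500-01 carries a harpin-induced domain, which is named after a tobacco gene switched on by a bacterial elicitor. Os07t0531500-01 was at 12.5 and 13.8 FPKM in the NT libraries, and at 65.4 and 72.8 (OsNAC5), 154 and 141 (OsNAC6), 275 and 317 (OsNAC9) and 34.3 and 31.9 (OsNAC10) in the lines. The order from low to high was NT, OsNAC10, OsNAC5, OsNAC6 and OsNAC9, with no overlap between any of the 5 groups. It was the only member among the 47 transcripts of that family in the table. Of the 32 with at least 2 FPKM in every line library, 15 (46.9%) had all line libraries above both NT libraries. In 4 (12.5%) all lay below. In the comparison set these shares were 18.2% and 14.7%. The 15 include Os07t0531500-01, which is above NT by the rule. The median difference of the 32 from NT was 0.26 on log2(FPKM + 1). Os10t0567900-01 resembles F-box proteins, which choose substrates for ubiquitin ligases. FPKM values of Os10t0567900-01, replicates 1 and 2, were 1.75 and 1.74 for NT, 7.45 and 5.94 for OsNAC5, 25 and 23 for OsNAC6, 20.0 and 20.1 for OsNAC9 and 4.53 and 3.95 for OsNAC10. OsNAC6 and OsNAC9 were high, OsNAC5 was intermediate and OsNAC10 was nearest to NT. Of the 443 F-box transcripts, 147 had at least 2 FPKM in every line library. Among these 147, 19 (12.9%) had all line libraries above NT and 29 (19.7%) all below, against 18.2% and 14.7% of the comparison set. The 19 include Os10t0567900-01, above NT by the rule.

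The most abundant member with an assigned function was Os11t0703900-02, a transcript of a heat shock protein 70 gene, an ATP-driven chaperone. NT showed 72.3 and 72.8 FPKM of Os11t0703900-02, OsNAC5 309 and 291, OsNAC6 675 and 454, OsNAC9 465 and 577 and OsNAC10 571 and 797. The lowest line library was 4.00 times the higher NT library, while the median difference from NT was -0.01 on log2(FPKM + 1) over the 13 of 24 transcripts of the family with at least 2 FPKM in every line library. Os03t0121300-02 resembles peroxidase 5, of a class of mostly secreted enzymes that oxidise phenolics of the cell wall. Os03t0121300-02 was at 3.94 and 0.00687 FPKM in the NT libraries, and at 10.1 and 13.8 (OsNAC5), 17.1 and 22.5 (OsNAC6), 13.5 and 21.9 (OsNAC9) and 27.8 and 45.7 (OsNAC10) in the lines. The NT libraries disagreed more than any line did. A peroxidase was named in the descriptions of 175 transcripts. Of the 110 with at least 2 FPKM in every line library, 26 (23.6%) had all line libraries above NT and 9 (8.18%) all below. The comparison set had the same 18.2% and 14.7%. The 26 include Os03t0121300-02, above NT by the rule. Argininosuccinate synthase (Os12t0235800-03) belongs to arginine synthesis. FPKM values of Os12t0235800-03, replicates 1 and 2, were 15.2 and 12.1 for NT, 32.9 and 42.1 for OsNAC5, 55.6 and 48.5 for OsNAC6, 40.4 and 42.6 for OsNAC9 and 57.9 and 47.3 for OsNAC10. Os12t0264500-01 resembles CHY1, a peroxisomal hydrolase that in Arabidopsis takes part in valine breakdown. NT showed 1.17 and 0.269 FPKM of Os12t0264500-01, OsNAC5 35.1 and 28.6, OsNAC6 25.9 and 15.1, OsNAC9 21 and 19.1 and OsNAC10 14.6 and 7.41. OsNAC5 was the highest line and OsNAC10 the lowest by mean. Os08t0345800-04 encodes a small subunit of the enzyme that makes ADP-glucose for starch. Os08t0345800-04 was at 1.36 and 0.403 FPKM in the NT libraries, and at 8.35 and 6.89 (OsNAC5), 9.78 and 10.2 (OsNAC6), 9.11 and 7.02 (OsNAC9) and 3.85 and 6.0 (OsNAC10) in the lines. NT was again uneven, and OsNAC10 was the lowest line.

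The remaining described members were low. Pleckstrin-type Os01t0231600-00 (a domain that often binds membrane lipids) had 1.99 and 3.07 FPKM in NT, while the lines spanned 6.79 to 10.5 FPKM. The formin-like Os06t0246200-00, of a family that nucleates actin filaments, had 0.746 and 0.233 FPKM in NT, while the lines spanned 2.95 to 4.99 FPKM. The aldose-1-epimerase Os02t0575800-01, of a family that interconverts sugar anomers, had 1.11 and 1.06 FPKM in NT, while the lines spanned 2.56 to 4.88 FPKM. Os07t0580700-01, annotated only with an integrin-type site, had 0.202 and 0.206 FPKM in NT, while the lines spanned 2.21 to 3.80 FPKM. In these 4 transcripts both NT libraries lay below 4 FPKM and all 8 line libraries above them.

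To find out whether the doubled transcripts lay beside each other, the Gene_IDs of the table were ordered by chromosome and number. Of the 50 member Gene_IDs, 8 (16%) had another member among the 3 nearest Gene_IDs on either side, against 0.737% of all 37869 Gene_IDs. They formed 3 runs, counted as member Gene_IDs with at most 2 others between them. Chromosome 7 held 2 of the runs and 13 of the 50 member Gene_IDs (26%), while 7.58% of all Gene_IDs are on it. No coordinates are given, and neighbours in number need not be close in distance.

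The longest run was of 4 consecutive Gene_IDs on chromosome 7, all hypothetical proteins, which ended with Os07g0511400, described above. FPKM values of Os07t0511100-00, replicates 1 and 2, were 0 and 0.0553 for NT, 5.04 and 5.58 for OsNAC5, 7.40 and 6.37 for OsNAC6, 7.13 and 5.55 for OsNAC9 and 4.67 and 6.40 for OsNAC10. NT showed 0 and 0 FPKM of Os07t0511201-00, OsNAC5 5.45 and 11.2, OsNAC6 6.67 and 6.60, OsNAC9 4.10 and 4.71 and OsNAC10 6.15 and 12.5. Os07t0511301-00 was at 0 and 0 FPKM in the NT libraries, and at 4.06 and 6.63 (OsNAC5), 4.80 and 4.14 (OsNAC6), 3.22 and 4.11 (OsNAC9) and 3.28 and 6.44 (OsNAC10) in the lines. These 3 were listed at 0 or nearly so in NT and reached 3.22 to 12.5 FPKM in the lines, far below the 807 FPKM and more of Os07t0511400-01. The Gene_ID before the run, Os07g0511000, had 29.2 and 29.1 FPKM in NT, while the lines spanned 26.6 to 33.9 FPKM, which overlapped. The Gene_ID after it, Os07g0511500, a RING-type zinc finger protein, had 3.04 and 2.90 FPKM in NT, while the lines spanned 3.29 to 6.93 FPKM, above NT but below the rule.

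**Figure D2:**
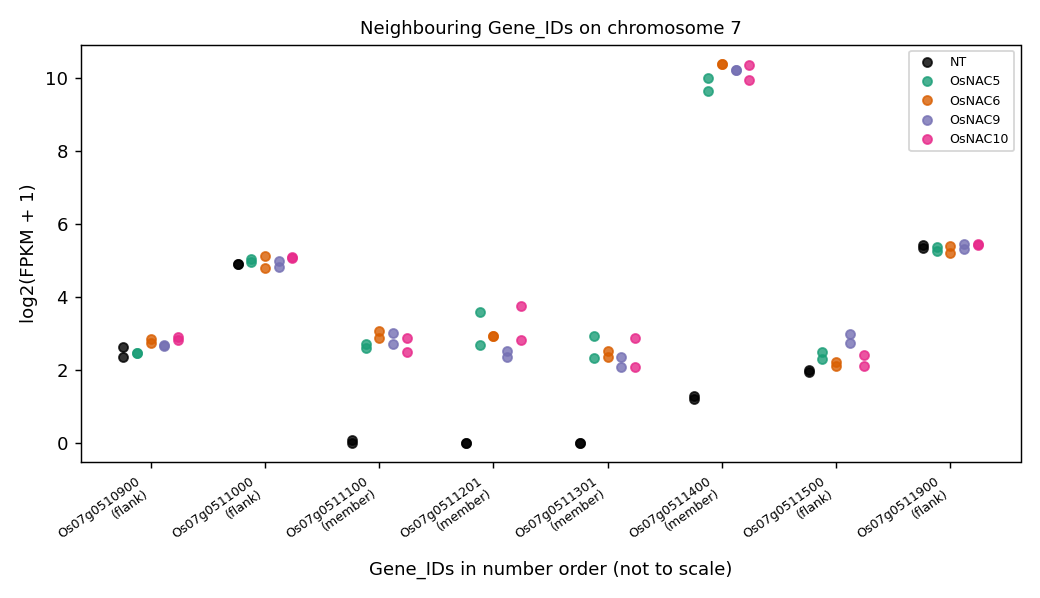
Level of 8 neighbouring Gene_IDs on chromosome 7 as log2(FPKM + 1), with 1 point per library and colours for NT and the 4 lines. The 4 member Gene_IDs have NT points at or near 0, or near 1 for Os07g0511400, and line points far above, while the flanking Gene_IDs overlap or lie close to NT.

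The second run, on chromosome 2, was of Os02g0772100 and Os02g0772150, both conserved hypothetical proteins. FPKM values of Os02t0772100-01, replicates 1 and 2, were 0.413 and 0.513 for NT, 7.21 and 7.44 for OsNAC5, 7.31 and 7.24 for OsNAC6, 3.21 and 3.35 for OsNAC9 and 8.11 and 9.34 for OsNAC10. NT showed 0 and 0 FPKM of Os02t0772150-00, OsNAC5 8.37 and 8.70, OsNAC6 11.7 and 8.44, OsNAC9 2.58 and 3.34 and OsNAC10 7.33 and 7.96. In both, the OsNAC9 libraries were below every other line library. The next Gene_ID, Os02g0772200, had another pattern. Os02t0772200-00 was at 2.43 and 2.67 FPKM in the NT libraries, and at 1.54 and 0.784 (OsNAC5), 0.419 and 0 (OsNAC6), 2.42 and 3.15 (OsNAC9) and 0 and 0 (OsNAC10) in the lines. Its values were below NT in both libraries of OsNAC5, OsNAC6 and OsNAC10 and on either side of NT in OsNAC9.

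The third run, also on chromosome 7, joined Os07g0531500, the harpin-induced gene, with the non-coding Os07g0531800. FPKM values of Os07t0531800-01, replicates 1 and 2, were 1.95 and 2.81 for NT, 9.41 and 8.78 for OsNAC5, 7.0 and 9.33 for OsNAC6, 8.37 and 8.03 for OsNAC9 and 10.2 and 8.14 for OsNAC10. The 2 Gene_IDs between them overlapped NT or lay slightly below it, at 46.0 to 47.4 FPKM in NT and 39.3 to 55.0 in the lines for Os07g0531600 and at 14.3 to 14.7 FPKM in NT and 11.4 to 14.0 in the lines for Os07g0531700. The next Gene_ID, Os07g0531900, had 4.75 and 4.31 FPKM in NT, while the lines spanned 6.16 to 8.73 FPKM. Over all member Gene_IDs, 24 of the 92 adjacent Gene_IDs that were no members (26.1%) had all 8 line sums above both NT sums, against 11.7% of all Gene_IDs.

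A pair on chromosome 1, Os01t0852800-01 and Os01t0869750-01, did not lie in a run but had nearly the same values in each line library, never more than 1.05 times apart. NT showed 0 and 0.0630 FPKM of Os01t0852800-01, OsNAC5 5.35 and 5.08, OsNAC6 6.61 and 3.91, OsNAC9 3.14 and 4.18 and OsNAC10 3.91 and 5.04. Os01t0869750-01 was at 0.0496 and 0.0630 FPKM in the NT libraries, and at 5.43 and 5.28 (OsNAC5), 6.66 and 4.10 (OsNAC6), 3.23 and 4.18 (OsNAC9) and 4.12 and 5.08 (OsNAC10) in the lines. Whether they share reads was not tested, so they may count as 1 measurement.

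To ask whether the whole gene followed the transcript, the FPKM of all transcripts of a Gene_ID were summed in each library. The sum followed when its lowest line library was at least 2 times its higher NT library. It followed for 40 of the 51. Of these, 34 were the only transcript of their Gene_ID, so the sum is the transcript itself. This leaves 17 of the 51, at Gene_IDs with several transcripts. The sum followed for 6 of the 17 and did not for 11. Among the 6 are Os10t0159300-01 and Os10t0159300-02, the only transcripts of Os10g0159300. Their shared sum followed by construction and is counted 2 times. Gene_IDs with several transcripts held 33.3% of the 51, against 18.0% of the comparison set.

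Where the sum followed, the doubled transcript could be nearly the whole sum, or its partner was higher in the lines too. Os04t0607400-01 was 95.6% to 97.6% of its sum in every library, and at Os04g0397800 the second transcript had 0.0265 and 0 FPKM in NT, while the lines spanned 1.06 to 2.32 FPKM. At Os06g0122800, the member took 6.35% and 3.36% of the sum in NT and 50.8% to 69.6% in the lines.

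Where it did not, a minor transcript had become a larger part of a gene whose total differed less. In all 11, every line sum still exceeded both NT sums, but the lowest line sum was only 1.02 to 1.60 times the higher NT sum (median 1.08), and the difference of the sums was 0.20 to 0.97 (log2). The share of the member in its sum was higher in each of the 8 line libraries than in both NT libraries for all 11. Choosing doubled transcripts at Gene_IDs whose sum was not doubled favours a higher share. Each sum also holds a member that the rule chose for exceeding NT, which favours sums above NT. Both counts are thus descriptions and no test. For the heat shock protein 70 transcript Os11t0703900-02, the share was 7.09% and 7.33% in NT and 23.6% to 52.8% in the lines. The other transcript of that Gene_ID, Os11t0703900-01, had 947 and 920 FPKM in NT, while the lines spanned 714 to 1000.5 FPKM, which overlapped. For argininosuccinate synthase, the share of Os12t0235800-03 was 26.5% and 21.7% in NT and 45.5% to 67.6% in the lines. Its partner Os12t0235800-01 was lower in every line library than in NT. FPKM values of Os12t0235800-01, replicates 1 and 2, were 42 and 43.8 for NT, 39.4 and 36.5 for OsNAC5, 33.8 and 33.8 for OsNAC6, 34.7 and 32 for OsNAC9 and 28.5 and 22.6 for OsNAC10. The sum of this Gene_ID was 57.2 and 55.9 FPKM in NT, while the lines spanned 69.9 to 89.5 FPKM.

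Os03t0146100-05 was under 1 FPKM in NT. NT showed 0.318 and 0.00011 FPKM of Os03t0146100-05, OsNAC5 26.6 and 33.2, OsNAC6 81.7 and 63.9, OsNAC9 61.3 and 61.2 and OsNAC10 117 and 185. It is described after a cDNA clone and lies at the Gene_ID that the study names as a tonoplast intrinsic protein, an aquaporin of the vacuole membrane. The main transcript of the Gene_ID, Os03t0146100-01, had 133 and 145 FPKM in NT, while the lines spanned 94.3 to 154 FPKM, so that the sum was 134 and 147 FPKM in NT, while the lines spanned 150.1 to 338 FPKM. The non-coding Os03t0648400-04 had an uneven NT. Os03t0648400-04 was at 10.2 and 0.000011 FPKM in the NT libraries, and at 22.4 and 33.1 (OsNAC5), 89.5 and 89.5 (OsNAC6), 82.7 and 67.6 (OsNAC9) and 121 and 131 (OsNAC10) in the lines. Its partner Os03t0648400-02, described as similar to a DnaJ protein, had 88.7 and 95.3 FPKM in NT. The lines spanned 72.2 to 85.7 FPKM for this partner, below NT in all 8. Os11t0545600-03, of the MRG family of chromatin proteins, was nearly 0 in NT and reached 2.10 to 12.3 FPKM in line libraries, and its share in the sum reached 7.55% to 38.3%. Of the 17 other transcripts at these 11 Gene_IDs, 3 were lower in all line libraries than in NT, as were 14.7% of the comparison set. The mean was lower for 10 of the 17, beside a median difference of 0.04 over the comparison set. Some of the 17 were too low to belong to that set. OsNAC10 was the highest line for 9 of the 11 and for 10 of the 40 others, against 33.7% of the comparison set. Values such as 0.000011 FPKM are estimates below the level of a whole fragment. How reads that fit several transcripts were divided is not given in the sources used here, and whether another division would give the same levels was not tested.

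**Figure D3:**
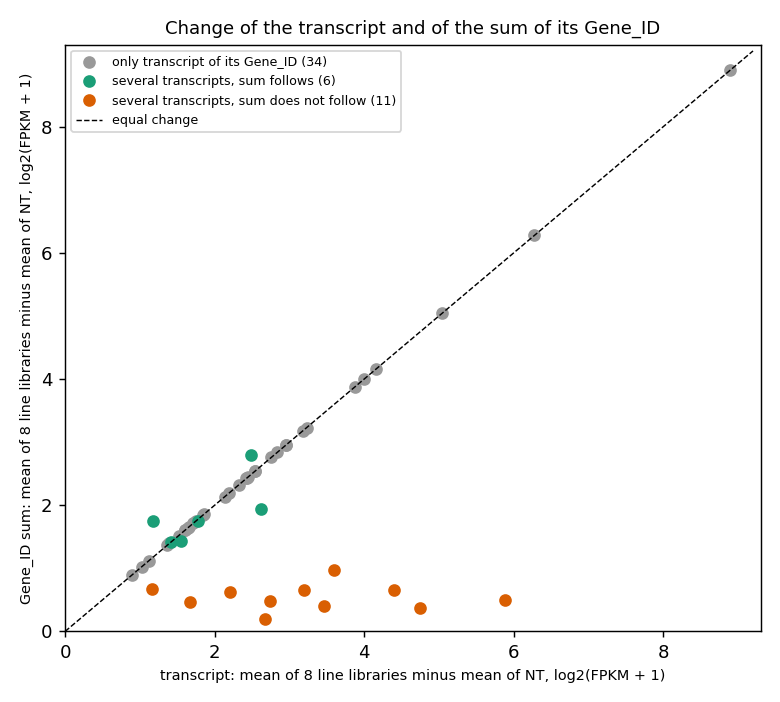
Difference between the mean of the 8 line libraries and the mean of NT for each of the 51 transcripts (x axis) and for the sum of its Gene_ID (y axis), both as log2(FPKM + 1). The 34 single transcripts lie on the line of equal change by construction, and the 11 whose sum did not follow lie between 0.20 and 0.97 on the y axis.

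To compare the lines with each other, which the rule did not use, the 8 line libraries were fitted with limma on log2(FPKM + 1). A member was called different when its Benjamini-Hochberg adjusted p over all 33387 transcripts above 0 in every line library was under 0.05. All 51 were in the fit. In at least 1 of the 6 contrasts between lines 21 of the 51 differed (41.2%), against 13.5% of all tested and 13.8% of the comparison set, and 30 did not pass in any. The rule sets a floor for every line library and no order among them. The ratio of the highest to the lowest line mean was under 2 for 29, 2 to 5 for 18 and 5 or more for 4, with a median of 1.61 against 1.28 in the comparison set. The highest line was OsNAC6 for 20, OsNAC10 for 19, OsNAC9 for 8 and OsNAC5 for 4 of the 51, while in the comparison set it was OsNAC6 for 18.5%, OsNAC10 for 33.7%, OsNAC9 for 19.8% and OsNAC5 for 28.0%. The lowest line was OsNAC5 for 24 (47.1%), OsNAC9 for 14 (27.5%), OsNAC10 for 9 (17.6%) and OsNAC6 for 4 (7.84%), against 26.2%, 21.0%, 31.7% and 21.1% of the comparison set.

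OsNAC5 against the others gave mostly lower members. Between OsNAC6 and OsNAC5, 9 of the 51 differed against 1.89% of all tested, 8 being higher in OsNAC6 (0.842% of all) and 1 lower (1.05%). Between OsNAC9 and OsNAC5, 12 differed against 2.06%, with 9 higher in OsNAC9 (1.20%) and 3 lower (0.863%). Between OsNAC10 and OsNAC5, 16 differed against 8.70%, with 11 higher in OsNAC10 (2.86%) and 5 lower (5.84%). Among the remaining contrasts, OsNAC9 and OsNAC6 differed in 4 against 1.52%, with 2 in each direction (1.01% higher and 0.512% lower in OsNAC9). OsNAC10 and OsNAC6 differed in 6 against 3.06%, with 2 higher in OsNAC10 (1.09%) and 4 lower (1.97%). OsNAC10 and OsNAC9 differed in 12 against 8.01%, with 6 higher (2.84%) and 6 lower (5.17%) in OsNAC10.

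Some of these counts rest on single libraries. The 9 between OsNAC6 and OsNAC5 became 5 without either OsNAC5 library. The 12 between OsNAC9 and OsNAC5 became 6 without OsNAC5 replicate 1 and 7 without OsNAC9 replicate 2. The 16 between OsNAC10 and OsNAC5 became 7 without OsNAC5 replicate 1 or without OsNAC10 replicate 2, 8 without OsNAC5 replicate 2 and 9 without OsNAC10 replicate 1. The 4 between OsNAC9 and OsNAC6 became 1 without OsNAC9 replicate 1 and 0 without OsNAC9 replicate 2, where limma gave 8 with an unadjusted p under 0.05. The 12 between OsNAC10 and OsNAC9 became 6 without OsNAC9 replicate 1 or OsNAC10 replicate 2 and 7 without OsNAC10 replicate 1. In each such fit 1 group was a single library, which is assumed to vary like the other groups. With no filter on zeros, over 41635 transcripts, the 16 between OsNAC10 and OsNAC5 became 8 (against 4.74% of all) and the 12 between OsNAC10 and OsNAC9 became 7 (against 5.56%).

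The largest difference between lines on log2(FPKM + 1) was that of the harpin-induced Os07t0531500-01, whose values stand above. By limma, OsNAC10 was 3.12 lower than OsNAC9 on the log2 scale (log2 difference -3.12, SE 0.11, adjusted p = 2.6e-05), and OsNAC9 was higher than OsNAC5 by 2.08 (SE 0.11, adjusted p = 0.00025) and than OsNAC6 by 1.00 (SE 0.11, adjusted p = 0.0076), the last of which was lost without OsNAC9 replicate 2 (0.90). Os07t0162450-01, which has a plant domain of unknown function, was lowest in OsNAC10. FPKM values of Os07t0162450-01, replicates 1 and 2, were 2.46 and 2.75 for NT, 63.7 and 58.4 for OsNAC5, 106 and 127 for OsNAC6, 126 and 118 for OsNAC9 and 17.7 and 19.2 for OsNAC10. By limma, the log2 difference of OsNAC10 was -2.66 from OsNAC9 (adjusted p = 7.1e-05), -2.59 from OsNAC6 (adjusted p = 0.00026) and -1.67 from OsNAC5 (adjusted p = 0.00084). Neither transcript overlapped between OsNAC10 and the other lines.

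In the F-box-like Os10t0567900-01, by limma, OsNAC6 was 1.71 (log2) above OsNAC5 (SE 0.13, adjusted p = 0.0024), and OsNAC10 differed from OsNAC6 by -2.26 (SE 0.13, adjusted p = 0.00064). Os07t0122000-01, with a domain of unknown function of the rice family, split the lines otherwise. NT showed 0.808 and 0.871 FPKM of Os07t0122000-01, OsNAC5 9.96 and 9.91, OsNAC6 2.55 and 2.86, OsNAC9 2.61 and 2.44 and OsNAC10 8.45 and 8.17. OsNAC5 and OsNAC10 were high and OsNAC6 and OsNAC9 low, with no overlap. By limma the log2 difference from OsNAC5 was -1.56 in OsNAC6 (adjusted p = 0.0020) and -1.63 in OsNAC9 (adjusted p = 0.00090), and OsNAC10 was 1.33 above OsNAC6 (adjusted p = 0.0025) and 1.40 above OsNAC9 (adjusted p = 0.00085). In Os03t0299700-01, OsNAC6 exceeded OsNAC5 by 1.71 (log2, limma adjusted p = 0.0040) and OsNAC9 did so by 1.91 (limma adjusted p = 0.0014). The first of these calls was lost without OsNAC5 replicate 1 (1.68) or replicate 2 (1.75).

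The conserved hypothetical pair on chromosome 2 was lowest in OsNAC9. By limma, the log2 difference of OsNAC9 from OsNAC6 was -1.47 for Os02t0772150-00 (adjusted p = 0.010) and -0.95 for Os02t0772100-01 (adjusted p = 0.010), and that from OsNAC5 was -1.27 for Os02t0772150-00 (adjusted p = 0.017). None of these 3 calls was kept without either OsNAC9 library, although the log2 differences stayed between -1.61 and -0.93. That of Os02t0772150-00 from OsNAC5 was also lost without either OsNAC5 library, at -1.30 and -1.25, and without either OsNAC10 library. Among transcripts whose Gene_ID sum did not follow, Os03t0146100-05 was higher in OsNAC10 than in OsNAC5 by 2.27 (log2, limma adjusted p = 0.0031) and than in OsNAC9 by 1.25 (limma adjusted p = 0.022), and Os03t0648400-04 was higher in OsNAC10 than in OsNAC5 by 2.17 (limma adjusted p = 0.0018). The second of these calls was lost without either OsNAC9 library (1.25 in both) and without OsNAC10 replicate 2 (0.93), and with no filter on zeros (limma adjusted p = 0.068). The third was lost in the fit on all 10 libraries, NT included (limma adjusted p = 0.16). Os12t0264500-01, the CHY1-like transcript, differed the other way, with a log2 difference of -1.51 of OsNAC10 from OsNAC5 (limma adjusted p = 0.041), a call lost without OsNAC5 replicate 1 (-1.37), OsNAC5 replicate 2 (-1.65), OsNAC10 replicate 2 (-1.06) or either OsNAC9 library, and with no filter on zeros (limma adjusted p = 0.11).

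Os05t0103800-00 was highest in OsNAC9. Os05t0103800-00 was at 14.9 and 15.4 FPKM in the NT libraries, and at 33.4 and 36 (OsNAC5), 46.3 and 60.3 (OsNAC6), 109 and 90.9 (OsNAC9) and 56.8 and 57.6 (OsNAC10) in the lines. It exceeded OsNAC6 there by 0.90 (log2, limma adjusted p = 0.036). Os04t0397800-01, a conserved hypothetical protein, was highest in OsNAC10. FPKM values of Os04t0397800-01, replicates 1 and 2, were 0 and 0.131 for NT, 4.91 and 4.53 for OsNAC5, 2.78 and 4.49 for OsNAC6, 4.36 and 4.12 for OsNAC9 and 7.58 and 9.01 for OsNAC10. It was 1.02 (log2) above OsNAC6 in that line (limma adjusted p = 0.042). Both calls were lost when any library other than OsNAC6 replicate 2 was left out, with log2 differences of 0.71 to 1.03 for Os05t0103800-00 and 0.76 to 1.14 for Os04t0397800-01. With no filter on zeros they were lost too, at a limma adjusted p of 0.081 and 0.094.

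**Figure D4:**
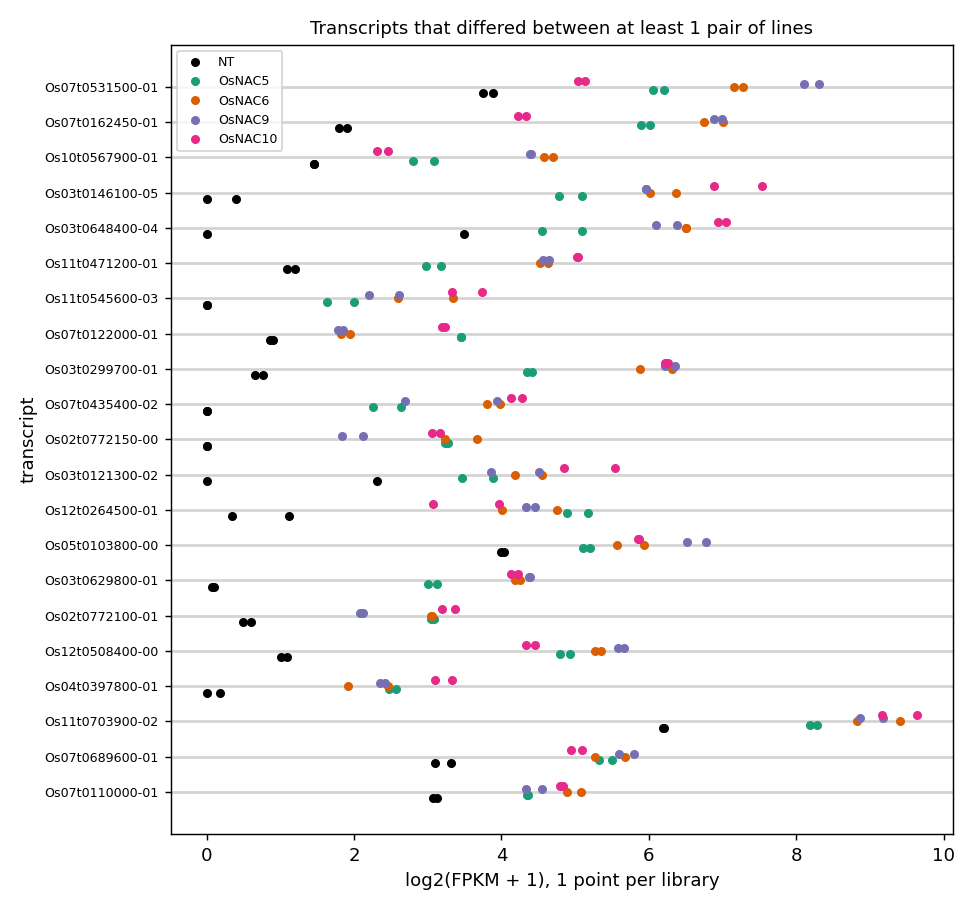
Levels of the 21 transcripts that differed in at least 1 contrast between lines, as log2(FPKM + 1) on the x axis, with 1 point per library and colours for NT and the 4 lines, ordered from bottom to top by the ratio of the highest to the lowest line mean. Os07t0531500-01 at the top has 5 separate pairs of points, while NT and line points lie apart in all rows.

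At the edge of the rule, the 3 members with the smallest ratio of the lowest line library to the higher NT library were Os08t0529901-00 at 2.04, Os02t0501350-01 at 2.12 and Os05t0103800-00 at 2.16. Just outside were Os06t0266800-01, similar to a gibberellin-stimulated protein, at 1.99, the RNA recognition motif protein Os04t0689700-01 at 1.99 and the hypothetical Os12t0528801-01 at 1.97. At the limit of 2 FPKM, the lowest line libraries of Os11t0545600-03, Os12t0169300-00 and Os07t0580700-01 had 2.10, 2.16 and 2.21 FPKM. Just below it, those of the Myb/SANT-like Os08t0496700-00, the pectin lyase-type Os03t0309400-01 and the hypothetical Os12t0228500-01 had 1.74, 1.52 and 1.41 FPKM. Transcripts on both sides of either limit had levels of the same size, so the number 51 belongs to the limits chosen.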

How the data were processed

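Roots of NT and of the 4 OsNAC lines were profiled with 2 libraries per group, and the titles give each sample's group and replicate number. The deposited values are FPKM per annotated transcript, made by the authors from reads cleared of adaptors, contaminants, duplicates and low-quality bases and aligned by TopHat against IRGSP 1.0 and RAP-DB genes. The program that gave the FPKM, the program versions and the use of strand in counting are not given in the sources used here. FPKM carry no read numbers, so no count test or counting interval was applied, and 2 libraries per group limit the precision. The 51 members and all lists were chosen with earlier results of these data known.

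Contrasts between lines were fitted with limma 3.58.1 in R 4.3.3 (lmFit and eBayes with trend, two-sided) on log2(FPKM + 1) of the 8 line libraries, for the 33387 transcripts above 0 in all of them. Calls needed a Benjamini-Hochberg adjusted p under 0.05 over these. The libraries are biological replicates per the study, and p-values measure the spread between them. The procedure was also run on simulated data. There the spreads were shuffled among transcripts and shifts were put into OsNAC10 only, so no conclusion on these data is drawn from that run. Function groups were set by words in the deposited descriptions. Transcripts named with values are those of a rule. It took members of runs and their flanks, those whose Gene_ID sum did not follow and those at the limits. It also took the 2 largest calls each way per contrast and up to 4 of the highest per description group. Last, it took the 10 members with the largest ratio of the lowest line library to the higher NT library, those with NT at 0 first. Others were named after their values were seen to account for all 51. Identifiers, descriptions and chromosomes come from the deposited table, and no coordinates, promoters or sequences of this build were used here. Alternatives were other limits, scalings, pseudocounts, filters, a replicate block, sums per Gene_ID and leaving out each library.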

Additional observations from a re-analysis of the deposited data

Results flagged for a closer look

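The results listed here are differences between lines, by limma, of the response that all lines shared against NT. All 23 passed an adjusted p under 0.05 in the main fit, and the replicates of the lines compared did not overlap in any. They were picked as the largest calls of each contrast, so the lack of overlap is no separate support. Several calls were lost when a single library was left out, as given for each transcript above. With no filter on zeros 4 of the 23 were lost, and with the replicate number as a block 3 were lost. Values are log2 differences of the first line minus the second. No explanation was tested.

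Os07t0531500-01, the harpin-induced transcript, had 2.08 for OsNAC9 minus OsNAC5, 1.00 for OsNAC9 minus OsNAC6 and -3.12 for OsNAC10 minus OsNAC9. Os07t0162450-01 had -1.67, -2.59 and -2.66 for OsNAC10 minus OsNAC5, OsNAC6 and OsNAC9. Os07t0122000-01 had -1.56 and -1.63 for OsNAC6 and OsNAC9 minus OsNAC5, and 1.33 and 1.40 for OsNAC10 minus OsNAC6 and OsNAC9. The F-box-like Os10t0567900-01 had 1.71 for OsNAC6 minus OsNAC5 and -2.26 for OsNAC10 minus OsNAC6. Os03t0299700-01 had 1.71 and 1.91 for OsNAC6 and OsNAC9 minus OsNAC5.

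On chromosome 2, Os02t0772150-00 had -1.27 and -1.47 for OsNAC9 minus OsNAC5 and OsNAC6, and Os02t0772100-01 had -0.95 for OsNAC9 minus OsNAC6. At Gene_IDs whose sum did not follow, Os03t0146100-05 had 2.27 and 1.25 for OsNAC10 minus OsNAC5 and OsNAC9, Os03t0648400-04 had 2.17 for OsNAC10 minus OsNAC5, and the CHY1-like Os12t0264500-01 had -1.51 for OsNAC10 minus OsNAC5. Os05t0103800-00 had 0.90 for OsNAC9 minus OsNAC6, and Os04t0397800-01 had 1.02 for OsNAC10 minus OsNAC6.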

How the results depend on the processing

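The number of doubled transcripts depended on the limits. With a minimum of 5 FPKM it was 28 (21 without assigned function), with a fold of 1.5 it was 138 (73) and with a fold of 3 it was 30 (24). Per line, OsNAC5 had 153 with a minimum of 5 FPKM, OsNAC5, OsNAC6, OsNAC9 and OsNAC10 had 576, 1162, 1212 and 1549 with a fold of 1.5, and 122, 173, 256 and 126 with a fold of 3. All 51 remained when the libraries were scaled to the same median (54 in all), after quantile normalization (56) and with a minimum of 1 FPKM (62). By sums per Gene_ID, 39 Gene_IDs met the rule, none of them new.

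Leaving out each library in turn gave 51 to 68 members, all 51 included, with the highest counts of 67 and 68 without an NT library. Those without assigned function numbered 38 to 45, the runs 3 to 4, and 40 of the original 51 had a Gene_ID sum that followed each time. The counts per line were 304 to 440 in OsNAC5, 545 to 1094 in OsNAC6, 616 to 865 in OsNAC9 and 487 to 685 in OsNAC10. Such counts can only stay or grow, since fewer libraries have to pass.

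Between lines, the counts without 1 library were 5 to 10 for OsNAC6 and OsNAC5, 6 to 12 for OsNAC9 and OsNAC5, 7 to 19 for OsNAC10 and OsNAC5, 0 to 4 for OsNAC9 and OsNAC6 (8 at an unadjusted limma p under 0.05 where the count is 0), 4 to 8 for OsNAC10 and OsNAC6 and 6 to 15 for OsNAC10 and OsNAC9. With no filter on zeros, OsNAC10 differed from OsNAC5 in 8 (4.74% of all) and from OsNAC9 in 7 (5.56%), and 4 of the 23 differences named above were lost. The fit on all 10 libraries lost 1 of the 20 it held. With p under 0.05 and 1.5 fold in place of the adjusted p, OsNAC6 differed from OsNAC5 in 16 (4.72% of all tested) and OsNAC10 from OsNAC6 in 11 (5.84%). With the replicate number as a block the counts were 9 for OsNAC6 and OsNAC5, 11 for OsNAC9 and OsNAC5, 11 for OsNAC10 and OsNAC5, 3 for OsNAC9 and OsNAC6, 6 for OsNAC10 and OsNAC6 and 11 for OsNAC10 and OsNAC9. The labels name no batch, but they number the libraries from 1 to 5 for replicate 1 and from 8 to 12 for replicate 2. Deviations of libraries with the same replicate number correlated across 26563 transcripts at -0.51 to 0.28 between groups. The numbers were not taken as pairs, and whether such libraries shared a batch cannot be told from this. The block lost 3 of the 23 differences, those of Os02t0772150-00 (OsNAC9 and OsNAC5), Os05t0103800-00 (OsNAC9 and OsNAC6) and Os04t0397800-01 (OsNAC10 and OsNAC6), at a limma adjusted p of 0.052, 0.087 and 0.076. No alternative turned a difference around.

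The pseudocount of 0.1 for the difference from NT was chosen after seeing the data. It moved 43 of the 51 values by more than 1 SD between libraries, and none changed sign.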
